A study of Mus musculus with 12 samples.

Results

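The 10 genes described here mark endothelium, the cell layer that lines blood vessels, and were read in whole mouse kidney after cisplatin, PCN, both drugs or neither. They were taken by name from the deposited table of 52636 genes: Kdr, Flt1, Tek, Ehd3, Emcn, Plvap, Pecam1, Cdh5, Eng and Sele, and all 10 were found. Every mouse was a wild-type C57BL/6 male of 8 weeks, and each of the 4 groups had 3 libraries. The cisplatin+PCN group had PCN at 40 mg/kg by gavage each day for 4 days, a single intraperitoneal cisplatin dose of 20 mg/kg on day 4, and PCN for 3 days more. The cisplatin group had the same cisplatin dose with corn oil in place of PCN, the PCN group had PCN with saline in place of cisplatin, and the control group had corn oil and saline. All kidneys were collected 4 days after the cisplatin or saline injection. The protocol text names the cisplatin group once among the PCN-pretreated mice and once among those given oil, so groups follow the library titles. PCN is pregnenolone carbonitrile, a synthetic steroid ligand of the mouse pregnane X receptor, and cisplatin is a platinum drug toxic to the proximal tubule.

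Values are FPKM, fragments per kilobase of gene scaled to library size. Between 18914607 and 26530485 reads per library fell in genes. All 10 genes entered the test, which took the 13540 genes that reached an FPKM of 1 or more in 3 or more of the 12 libraries. Sele met that minimum in the cisplatin libraries alone, so its test was open only because of the group in which it was high. Changes are differences of log2(FPKM + 1) with their standard error from 1 limma fit of all 12 libraries, and a change was called at an adjusted p (Benjamini-Hochberg over the 13540 genes) under 0.05. No label says that the libraries came from separate animals, so a p-value here reflects library-to-library spread alone, which may be partly technical. Podocyte markers summed to between 68.5 and 90.4 FPKM over all libraries and proximal tubule markers to at least 278, as kidney holds. In a whole-organ sample, fewer endothelial cells and less RNA per endothelial cell cannot be told apart.

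Endothelial cells read vascular endothelial growth factor (VEGF) through the tyrosine kinase receptors Kdr (VEGFR2), the main signalling receptor, and Flt1 (VEGFR1), which binds the ligand tightly, signals weakly and also exists as a soluble decoy form. Tek (TIE2) is the receptor of the angiopoietins: Angpt1 activates it and keeps vessels quiescent, while Angpt2 acts mostly as its antagonist. The kidney holds several capillary beds. Glomerular capillaries have open pores and are rich in Ehd3, whereas the pores of peritubular capillaries are bridged by diaphragms built from Plvap. Sele (E-selectin) is nearly silent in resting endothelium and is induced by inflammatory cytokines.

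After cisplatin without PCN the endothelial genes moved apart from each other. Flt1, Pecam1 and Sele rose, Tek, Ehd3 and Kdr fell, and Plvap, Eng, Emcn and Cdh5 did not pass the test. Thus 3 of 10 members rose and 3 fell, in a comparison in which 63.9% of all tested genes were called, 32% higher and 31.9% lower. Sele, tested only because it was high with cisplatin, is among the 3 and adds no support. The share called is near that background, and the members' median change of -0.06 lay close to the median of 0.01 over all tested genes. The cisplatin and control libraries did not overlap for the same 6 members, against 67.7% of all tested genes.

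**Figure D1:**
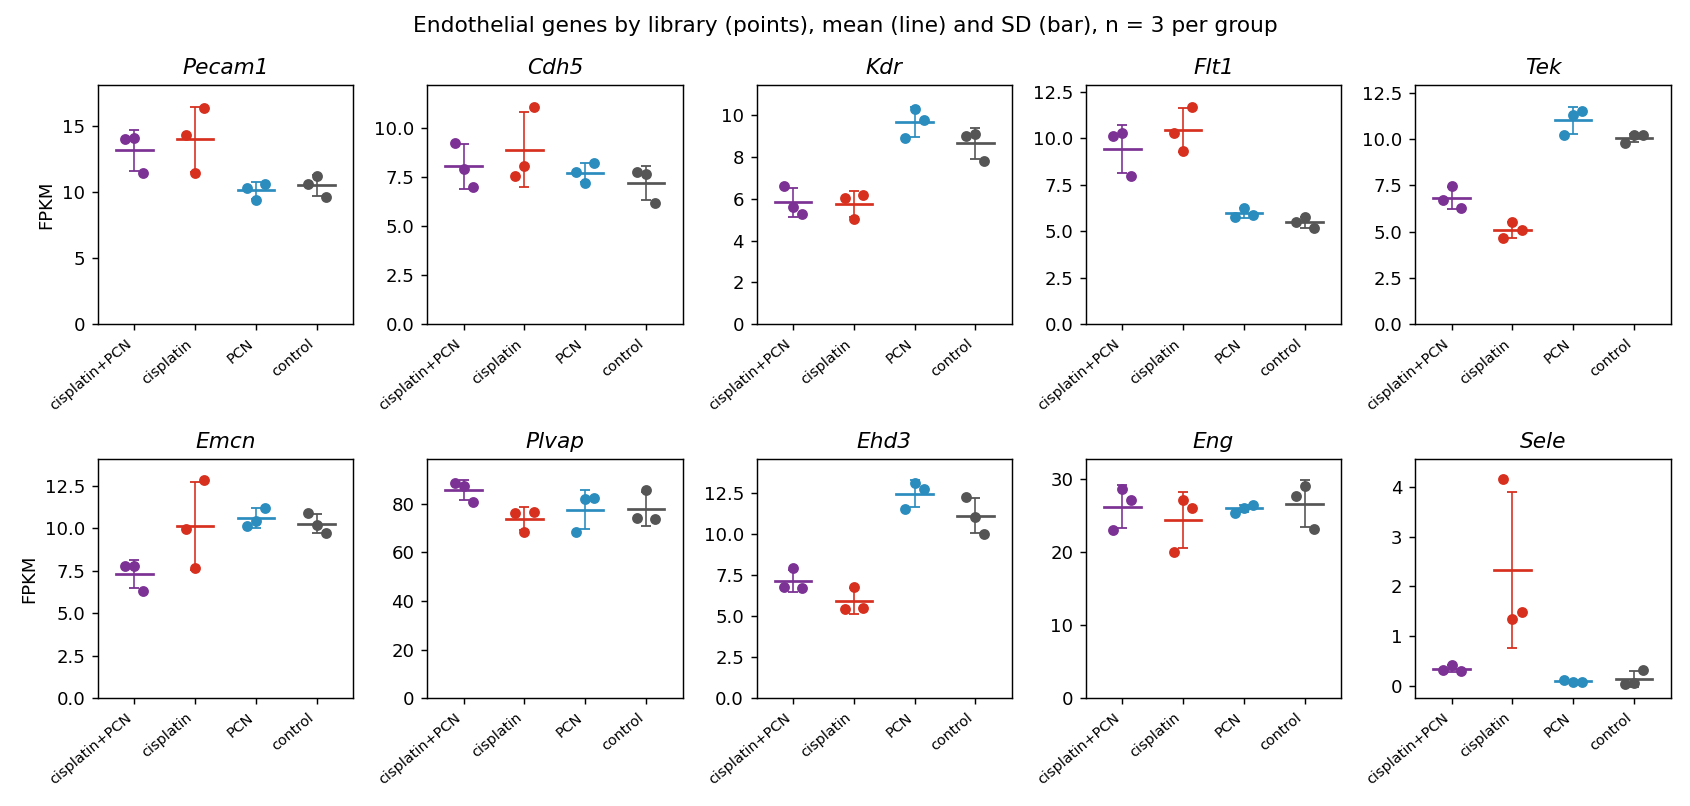
FPKM of each endothelial gene in every library (points), with the group mean (line) and SD (bar) over 3 libraries, for cisplatin+PCN, cisplatin, PCN and control from left to right. Axes start at 0 except for Sele, and differ between panels; Flt1 is higher and Kdr, Tek and Ehd3 are lower in all 6 libraries with cisplatin than in the 6 without.

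The VEGF receptors changed in opposite directions. Kdr (ENSMUSG00000062960, chr5:75932827-75978458, minus strand) and Flt1 (ENSMUSG00000029648, chr5:147561604-147726011, minus strand) lie on the same chromosome in GRCm38, the build whose coordinates the deposited table carries. Flt1 read 10.1, 10.3 and 7.97 FPKM in the cisplatin+PCN libraries, 10.3, 9.32 and 11.7 with cisplatin, 5.76, 6.27 and 5.88 with PCN, and 5.52, 5.76 and 5.18 in control. Every library with cisplatin was above every library without it. Flt1 averaged 10.4 ± 1.19 FPKM with cisplatin and 5.49 ± 0.30 in control (SD, n = 3 each), a rise of 0.82 ± 0.10 on the log2 scale (limma, adjusted p = 3.54e-05). Kdr read 6.61, 5.58 and 5.29 FPKM with cisplatin+PCN, 6.03, 5.01 and 6.18 with cisplatin, 8.88, 10.3 and 9.76 with PCN, and 9, 9.11 and 7.80 in control. Its 6 libraries with cisplatin were all below the 6 without. Kdr averaged 5.74 ± 0.64 FPKM with cisplatin and 8.64 ± 0.73 in control (SD, n = 3 each), a change of -0.52 ± 0.10 on the log2 scale (limma, adjusted p = 0.000878). Both calls held under all alternatives tried.

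The order of these FPKM values was therefore different with and without cisplatin. The ratio of Flt1 to Kdr FPKM was 1.52, 1.84 and 1.51 with cisplatin+PCN, 1.71, 1.86 and 1.89 with cisplatin, 0.649, 0.606 and 0.603 with PCN, and 0.613, 0.633 and 0.664 in control. FPKM uses 1 fixed length per gene, 13504 bases for Flt1 and 9030 for Kdr, whatever transcript forms are present. Whether a ratio lies above or below 1 therefore depends on those lengths. In FPKM, Flt1 was above Kdr in all 6 libraries with cisplatin and below it in all 6 without. A value per gene does not separate the membrane form of Flt1 from its soluble form.

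The promoters of the receptor genes are shown because these genes changed in opposite directions. The windows are from RefSeq (GRCm38.p6), run 5′ to 3′ on the gene's strand from 250 bases before to 50 after the start, and cover chr5:147725962-147726261 for Flt1 and chr5:75978406-75978705 for Kdr. Capitals mark GGAAG, the core read by ETS factors, a family of transcription factors active in endothelium, or its reverse complement CTTCC.
Flt1: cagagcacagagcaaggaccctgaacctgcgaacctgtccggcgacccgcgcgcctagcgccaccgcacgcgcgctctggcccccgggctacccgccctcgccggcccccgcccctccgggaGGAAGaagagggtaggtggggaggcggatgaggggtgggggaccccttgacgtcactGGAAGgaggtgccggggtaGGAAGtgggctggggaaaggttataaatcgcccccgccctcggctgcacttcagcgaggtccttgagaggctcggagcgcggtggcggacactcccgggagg
Kdr: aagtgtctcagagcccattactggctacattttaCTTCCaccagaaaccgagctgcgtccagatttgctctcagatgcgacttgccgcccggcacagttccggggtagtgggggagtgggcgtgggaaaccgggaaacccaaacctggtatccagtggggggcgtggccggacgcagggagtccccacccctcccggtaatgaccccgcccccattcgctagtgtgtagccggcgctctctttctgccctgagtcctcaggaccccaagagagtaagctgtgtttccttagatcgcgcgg
Flt1 held 3 such matches and Kdr 1. The core is short, and 71.1% of 27025 mouse promoters of the same length held at least 1, so a match is a description of the sequence and not of binding.

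Tek (ENSMUSG00000006386, chr4:94739289-94874976, plus strand), the angiopoietin receptor, had the largest fall among the 10 genes for cisplatin against control. It read 6.71, 7.45 and 6.27 FPKM with cisplatin+PCN, 4.69, 5.51 and 5.09 with cisplatin, 10.2, 11.3 and 11.5 with PCN, and 9.79, 10.2 and 10.2 in control. The cisplatin libraries were the lowest 3 of the 12, and the cisplatin+PCN libraries lay between them and the libraries without cisplatin. Tek averaged 5.09 ± 0.41 FPKM with cisplatin and 10.1 ± 0.24 in control (SD, n = 3 each), a ratio of 0.506 and a change of -0.86 ± 0.08 on the log2 scale (limma, adjusted p = 3.67e-06). Ehd3 (ENSMUSG00000024065, chr17:73804841-73832093, plus strand), a membrane-trafficking protein used as a marker of glomerular endothelium, was next. It read 6.76, 7.89 and 6.69 FPKM with cisplatin+PCN, 5.41, 6.78 and 5.48 with cisplatin, 11.5, 13.1 and 12.7 with PCN, and 12.2, 11 and 10 in control. The 6 libraries with cisplatin were again all below the 6 without. Ehd3 averaged 5.89 ± 0.77 FPKM with cisplatin and 11.1 ± 1.06 in control (SD, n = 3 each), a change of -0.81 ± 0.10 on the log2 scale (limma, adjusted p = 3.59e-05). Both calls held under all alternatives tried.

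Tek and Ehd3 followed each other closely over the 12 libraries. After each gene's control mean was subtracted, they differed by 0.0714 on average in log2(FPKM + 1), and among 11808 protein-coding genes compared Tek was the nearest to Ehd3. Their promoters are printed for that reason, chr4:94739039-94739338 for Tek and chr17:73804591-73804890 for Ehd3, both on the plus strand, again with matches in capitals. A second motif was searched on both strands, that of NF-kB, a factor that inflammatory cytokines activate, as GGG, any 3 bases and then TTCC.
Tek: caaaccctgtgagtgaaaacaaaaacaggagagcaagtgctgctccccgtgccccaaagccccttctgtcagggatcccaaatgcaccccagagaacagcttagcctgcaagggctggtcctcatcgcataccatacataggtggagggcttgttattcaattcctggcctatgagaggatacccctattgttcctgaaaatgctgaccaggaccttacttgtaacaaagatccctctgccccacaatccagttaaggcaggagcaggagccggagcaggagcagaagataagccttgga
Ehd3: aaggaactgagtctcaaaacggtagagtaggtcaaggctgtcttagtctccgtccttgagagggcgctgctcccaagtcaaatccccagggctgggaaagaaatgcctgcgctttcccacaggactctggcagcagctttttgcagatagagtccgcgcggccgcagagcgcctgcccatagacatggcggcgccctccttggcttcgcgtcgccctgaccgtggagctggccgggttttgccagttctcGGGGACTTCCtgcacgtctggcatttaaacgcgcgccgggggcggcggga
Tek held neither motif in this window. Ehd3 held 1 NF-kB match, GGGGACTTCC, which contains its only ETS core, so the capitals there mark both. Of the 27025 promoters, 5.52% held an NF-kB match. No match says only that these letters are not in the window.

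**Figure D2:**
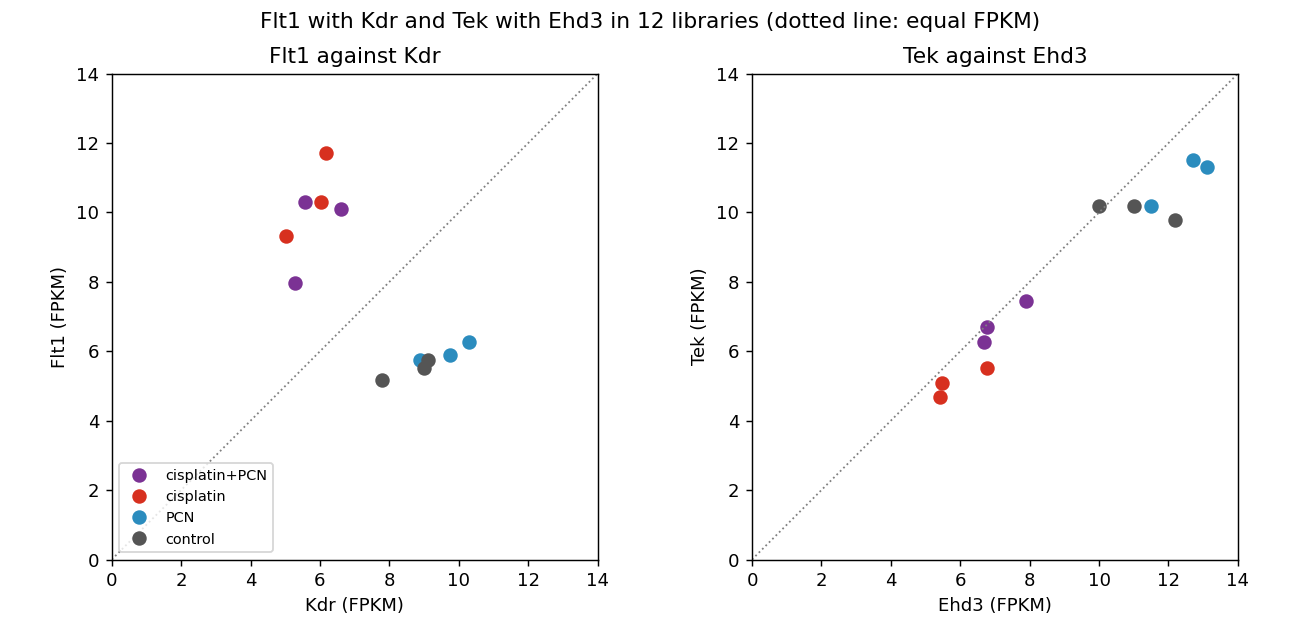
Flt1 against Kdr (left) and Tek against Ehd3 (right), both axes in FPKM, 1 point per library coloured by group, with a dotted line where the pair is equal. On the left the 6 libraries with cisplatin lie above the line and the 6 without lie below it; on the right Tek runs from 4.69 to 11.5 FPKM and the groups line up along the diagonal.

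Plvap and Emcn were not called for cisplatin without PCN. Plvap (ENSMUSG00000034845, chr8:71497765-71511752, minus strand) had the highest FPKM of the 10 genes in every library. It read 88.4, 87.3 and 80.9 FPKM with cisplatin+PCN, 76.3, 68.3 and 76.8 with cisplatin, 68.3, 82.0 and 82.2 with PCN, and 74.1, 85.7 and 73.7 in control. The cisplatin and control libraries overlapped. The cisplatin change of Plvap was -0.07, with a 95% interval from -0.28 to 0.13 on the log2 scale (limma, adjusted p = 0.507). The ratio of Plvap to Ehd3 FPKM lay between 11.1 and 13.1 with cisplatin+PCN, between 10.1 and 14.1 with cisplatin, between 5.94 and 6.49 with PCN, and between 6.08 and 7.78 in control. The ranges with and without cisplatin did not overlap, but Plvap was not called, so the ratio mainly repeats the fall of Ehd3. The genes listed for glomerular endothelium were Ehd3, Tek, Kdr, Flt1 and Emcn. After cisplatin without PCN, Ehd3, Tek and Kdr fell, Flt1 rose and Emcn was not called. The share of each capillary bed was not tested. Emcn (ENSMUSG00000054690, chr3:137341067-137432185, plus strand), a sialomucin of capillary and venous endothelium, read 7.75, 7.76 and 6.32 FPKM with cisplatin+PCN, 9.92, 7.63 and 12.8 with cisplatin, 10.1, 10.4 and 11.2 with PCN, and 10.9, 10.2 and 9.72 in control. The cisplatin libraries spread more widely than any other group, with a coefficient of variation of 25.5% against 5.55% in control. The cisplatin change of Emcn was -0.04, with a 95% interval from -0.36 to 0.27 (limma, adjusted p = 0.805).

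Of the junction genes and Eng, only Pecam1 passed the test. Pecam1 (ENSMUSG00000020717, chr11:106654217-106750628, minus strand), an adhesion molecule of endothelial junctions that platelets and leukocytes also carry, read 14, 14.1 and 11.4 FPKM with cisplatin+PCN, 14.3, 11.4 and 16.3 with cisplatin, 10.3, 9.40 and 10.6 with PCN, and 10.6, 11.2 and 9.65 in control. All 6 libraries with cisplatin were above the 6 without, by a narrow margin at the lowest. Pecam1 averaged 14 ± 2.47 FPKM with cisplatin and 10.5 ± 0.79 in control (SD, n = 3 each), a rise of 0.37 ± 0.12 on the log2 scale (limma, adjusted p = 0.0203). That call was lost on omitting cisplatin replicate 1, cisplatin replicate 3 or control replicate 3, where limma's adjusted p was 0.0571, 0.0852 and 0.0744. Cdh5 (ENSMUSG00000031871, chr8:104101625-104144511, plus strand), the cadherin of endothelial junctions, read 9.27, 7.94 and 6.99 FPKM with cisplatin+PCN, 7.56, 8.08 and 11.1 with cisplatin, 7.78, 7.22 and 8.22 with PCN, and 7.76, 7.69 and 6.21 in control. The groups overlapped, and the cisplatin change of 0.26, with a 95% interval from -0.04 to 0.56, was not called (limma, adjusted p = 0.12). It passed on recovered reads with limma-voom (adjusted p = 0.0276) and after rescaling to recovered-read totals (adjusted p = 0.0367). Eng (ENSMUSG00000026814, chr2:32646595-32682669, plus strand), endoglin, a co-receptor for BMP and TGF-beta ligands, read 23.0, 28.6 and 27.1 FPKM with cisplatin+PCN, 20.0, 27.1 and 26.1 with cisplatin, 25.4, 26.1 and 26.4 with PCN, and 27.7, 29.1 and 23.1 in control. Its groups overlapped in all comparisons. The cisplatin change of Eng was -0.13, with a 95% interval from -0.40 to 0.14 (limma, adjusted p = 0.385).

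Sele (ENSMUSG00000026582, chr1:164048234-164057677, plus strand), which captures rolling neutrophils on activated endothelium, was near the lower end of detection outside the cisplatin group. It read 0.314, 0.418 and 0.298 FPKM with cisplatin+PCN, 4.16, 1.35 and 1.49 with cisplatin, 0.105, 0.0700 and 0.0794 with PCN, and 0.0367, 0.0452 and 0.322 in control. These values rest on 23, 31 and 22 reads with cisplatin+PCN, 233, 91 and 118 reads with cisplatin, 7, 4 and 5 reads with PCN, and 2, 3 and 21 reads in control. The cisplatin libraries were the highest 3 of the 12, and control replicate 3 was as high as the cisplatin+PCN libraries. Sele averaged 2.33 ± 1.58 FPKM with cisplatin and 0.135 ± 0.163 in control (SD, n = 3 each). The ratio of these means was 17.3, but 57 without control replicate 3 and 10.5 without cisplatin replicate 1. The change of log2(FPKM + 1), which understates low genes, was 1.47 ± 0.25 (limma, adjusted p = 0.000363). Selp (P-selectin), the related selectin of the activation list, stayed under the expression minimum and was not tested. It read 0.0902, 0.267 and 0.0627 FPKM with cisplatin+PCN, 1.53, 0.756 and 1.08 with cisplatin, 0.0099, 0.0231 and 0.0314 with PCN, and 0.0969, 0.0298 and 0.0811 in control, so its highest 3 libraries were also those with cisplatin alone. The Sele promoter (chr1:164047984-164048283, plus strand) is printed because cytokine induction of this gene in endothelium is classically ascribed to NF-kB.
Sele: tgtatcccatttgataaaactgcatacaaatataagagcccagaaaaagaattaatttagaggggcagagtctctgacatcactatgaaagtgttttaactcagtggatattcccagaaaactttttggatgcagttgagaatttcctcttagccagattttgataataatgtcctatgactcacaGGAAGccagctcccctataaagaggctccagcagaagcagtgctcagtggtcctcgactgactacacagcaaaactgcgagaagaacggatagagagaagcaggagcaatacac
The capitals mark its single ETS core. The NF-kB letters searched here, GGG, any 3 bases and then TTCC, were not in this window. Looser forms of that motif were not searched, so nothing follows about that factor.

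Transcripts of other cell types changed in the same comparison. Each of the 7 proximal tubule genes checked fell, with a summed level from 278 to 374 FPKM with cisplatin and from 3120 to 3220 in control. Each of the 5 tubular injury genes rose, summing to between 1590 and 1910 FPKM with cisplatin and between 8.78 and 9.8 in control. All 6 erythroid genes fell, their sum running from 1.87 to 7.95 FPKM with cisplatin and from 330 to 1200 in control. The injury genes Havcr1 and Krt20 reached the expression minimum only in libraries with cisplatin, and the erythroid genes Hbb-bt, Hba-a2 and Alas2 only in those without. The directions of these genes were therefore fixed by that minimum. Among leukocyte markers, 4 of 7 tested (11 listed) rose and 1 fell, against 32% and 31.9% of all tested genes, and the summed level was 49.2 to 101 FPKM with cisplatin+PCN, 90 to 115 with cisplatin, 52.3 to 59.8 with PCN and 59.8 to 79.8 in control. Of the platelet markers 1 of 3 tested (6 listed) rose, Itgb3, which reached the expression minimum only in libraries with cisplatin and so had to differ. The platelet sums were 5.01 to 5.52 FPKM with cisplatin+PCN, 7.91 to 8.6 with cisplatin, 2.88 to 3.92 with PCN and 3.08 to 4.78 in control. No leukocyte or platelet marker was at 0 in every library of a group. The part of tubule loss, blood content, leukocytes or platelets in the endothelial values was not tested. The sum of the 10 endothelial genes themselves ranged from 159 to 177 FPKM with cisplatin+PCN, from 150 to 173 with cisplatin, from 158 to 179 with PCN and from 156 to 180 in control, and Plvap made up between 43.1% and 51.1% of it.

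No endothelial gene was called after PCN without cisplatin. The log2 changes of the 10 genes ran from -0.06 for Sele to 0.15 for Ehd3, and limma's adjusted p was 1 for each, with 0 at an unadjusted p under 0.05 and 0 called by limma-voom. Over all tested genes limma also called 0 (0%), with 438 at an unadjusted p under 0.05, and of the alternatives tried only the one without the expression minimum called any, 2 genes. Apart from Sele, the 95% intervals reached at most 0.39, for Cdh5, and at lowest -0.32, for Pecam1. Flt1 was the only member whose PCN and control libraries did not overlap, against 13.3% of all tested genes, and its change of 0.10 had an interval from -0.11 to 0.32.

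When PCN was given with cisplatin, Tek was higher than with cisplatin alone. Sele was called lower, but it was tested only because it was high in the cisplatin group, so its call adds no support. Tek averaged 6.81 ± 0.60 FPKM with cisplatin+PCN and 5.09 ± 0.41 with cisplatin (SD, n = 3 each), a difference of 0.36 ± 0.08 on the log2 scale (limma, adjusted p = 0.0161). Sele averaged 0.344 ± 0.065 FPKM with cisplatin+PCN and 2.33 ± 1.58 with cisplatin (SD, n = 3 each), a difference of -1.21 ± 0.25 (limma, adjusted p = 0.0141). The libraries of the groups did not overlap for either gene. These are 2 of 10 members, in a comparison in which 15.6% of all tested genes were called, 7.97% higher and 7.61% lower. With Plvap, 3 members had groups that did not overlap, against 29.4% of all tested genes. With only the 6 libraries compared, limma called neither Tek nor Sele (adjusted p = 0.131 for Tek and 0.124 for Sele) and only 1 gene of all. Tek was also lost without cisplatin replicate 1 or 3 (limma, adjusted p = 0.0551 and 0.0505).

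The remaining members did not pass this comparison, as follows. Emcn averaged 7.27 ± 0.83 FPKM with cisplatin+PCN and 10.1 ± 2.58 with cisplatin (SD, n = 3 each), a difference of -0.40 ± 0.14 (limma, adjusted p = 0.0762). Without cisplatin replicate 2, which held the lowest Emcn of its group, limma's adjusted p for Emcn was 0.00719, and with limma-voom on recovered reads it was 0.0478. Plvap was higher in all 3 cisplatin+PCN libraries than in any cisplatin library, but its difference of 0.21 was not called (limma, adjusted p = 0.142). Ehd3, the close partner of Tek, differed by 0.24 with an interval from 0.02 to 0.46 (limma, adjusted p = 0.122), and passed only without cisplatin replicate 2 (adjusted p = 0.0304). For Kdr the difference was 0.02, with an interval from -0.20 to 0.24, and for Flt1 it was -0.14, with an interval from -0.35 to 0.08. The cisplatin+PCN libraries differed among themselves, with proximal tubule sums from 416 to 994 FPKM and injury sums from 681 to 1630, against proximal tubule sums from 278 to 374 and injury sums from 1590 to 1910 with cisplatin. The part of these sums in the endothelial differences was not tested.

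Within PCN-treated mice, cisplatin again went with higher Flt1 and lower Tek, Ehd3 and Kdr, and Emcn was lower as well. Of the 10 genes 2 rose and 4 fell between cisplatin+PCN and PCN, where 46.9% of all tested genes were called, 23.5% higher and 23.4% lower. The libraries of the groups did not overlap for these 6 and for Sele, against 59.3% of all tested genes. Flt1 averaged 9.43 ± 1.27 FPKM with cisplatin+PCN and 5.97 ± 0.26 with PCN (SD, n = 3 each), a rise of 0.57 ± 0.10 (limma, adjusted p = 0.000774). Tek averaged 6.81 ± 0.60 FPKM with cisplatin+PCN and 11 ± 0.73 with PCN (SD, n = 3 each), a change of -0.62 ± 0.08 (limma, adjusted p = 7.75e-05). Ehd3 changed by -0.73 ± 0.10 (limma, adjusted p = 0.000163) and Kdr by -0.65 ± 0.10 (limma, adjusted p = 0.000355). These 4 calls held under all alternatives tried. Emcn averaged 7.27 ± 0.83 FPKM with cisplatin+PCN and 10.6 ± 0.57 with PCN (SD, n = 3 each), a change of -0.49 ± 0.14 (limma, adjusted p = 0.0152), which was lost without PCN replicate 3 (adjusted p = 0.053) or cisplatin+PCN replicate 3 (adjusted p = 0.0609). Sele averaged 0.344 ± 0.065 FPKM with cisplatin+PCN and 0.0848 ± 0.0182 with PCN (SD, n = 3 each), a ratio of 4.05 on few reads that was not called (limma, adjusted p = 0.329). Plvap was not called (limma, adjusted p = 0.225) but passed with limma-voom (adjusted p = 0.0431) and with recovered-read totals (adjusted p = 0.0469). Pecam1 rose by 0.34 ± 0.12 (limma, adjusted p = 0.0372), a call lost on omitting any PCN library, cisplatin+PCN replicate 1 or cisplatin+PCN replicate 2, with an adjusted p of at most 0.118, as well as without the expression minimum (adjusted p = 0.0771).

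Against control, the kidneys with both drugs showed 1 member higher and 4 lower, with 46.6% of all tested genes called, 23% higher and 23.6% lower. These 5 and Pecam1 had groups that did not overlap, against 57.5% of all tested genes. Flt1 rose by 0.68 ± 0.10 (limma, adjusted p = 0.000271). Ehd3 changed by -0.57 ± 0.10, Tek by -0.50 ± 0.08 and Kdr by -0.50 ± 0.10 (limma, adjusted p = 0.00079, 0.000342 and 0.00189). Emcn changed by -0.45 ± 0.14 (limma, adjusted p = 0.0237), a call that did not survive omission of control replicate 1, control replicate 2 or cisplatin+PCN replicate 3, or of the expression minimum, where adjusted p ran from 0.0549 to 0.0887. Pecam1 differed by 0.30 ± 0.12 and was not called (limma, adjusted p = 0.067), but passed on recovered reads (adjusted p = 0.015). These comparisons share libraries with those above and are not independent of them.

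**Figure D3:**
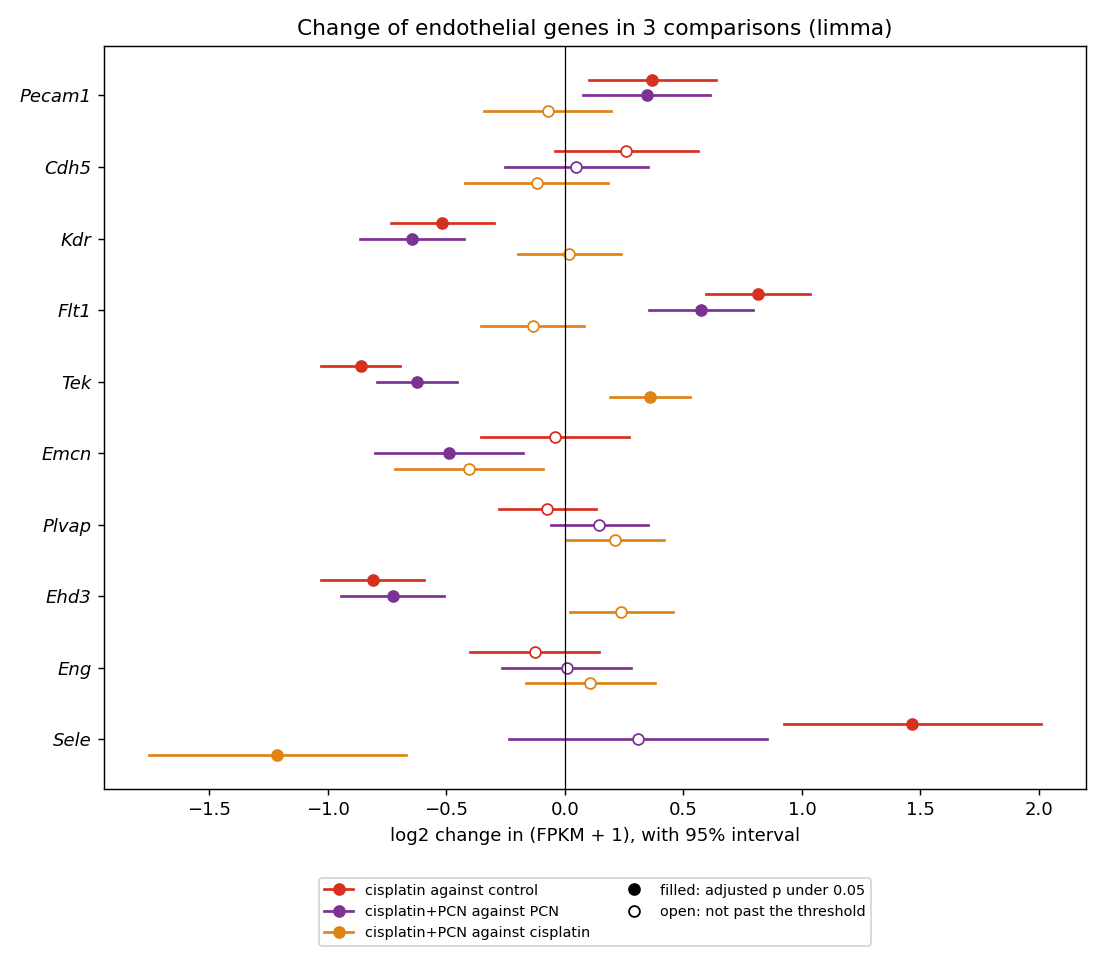
Change of each endothelial gene in log2(FPKM + 1) with its 95% interval (horizontal axis), for cisplatin against control, cisplatin+PCN against PCN and cisplatin+PCN against cisplatin, filled where limma's adjusted p is under 0.05. Flt1, Kdr, Tek and Ehd3 are filled on the same side for cisplatin with and without PCN; Tek and Sele are filled between cisplatin+PCN and cisplatin.

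Whether cisplatin acted differently with PCN was tested directly by the interaction, and no endothelial gene passed, by limma or limma-voom. At an unadjusted p under 0.05 there were 3, Sele, Emcn and Tek. The smallest adjusted p of limma was 0.136, for Sele, whose cisplatin change differed by -1.16 ± 0.35 on the log2 scale between mice with and without PCN. For Tek the interaction was 0.24, with an interval from 0.00 to 0.48 (limma, adjusted p = 0.256), and for Emcn -0.45, with an interval from -0.89 to -0.01 (limma, adjusted p = 0.253). Over all tested genes 15 were called, or 0.111%, with 0.0739% higher and 0.0369% lower. Leaving out cisplatin replicate 2 let Emcn and Sele pass (limma, adjusted p = 0.0391 and 0.0409), so a difference for these genes depends on that library. The same omission let 1066 of all tested genes pass, against 15 with every library kept. Sele was tested only because it was high in the cisplatin group, so its interaction adds no support.

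Ordered by mean FPKM, Plvap led and Eng came next in all 4 groups, and Sele was last, each apart from its neighbour. In control Ehd3, Pecam1, Emcn and Tek followed at 11.1, 10.5, 10.2 and 10.1 FPKM with overlapping libraries, then Kdr at 8.64, Cdh5 at 7.22 and Flt1 at 5.49, each apart from the next. With cisplatin Pecam1, Flt1, Emcn and Cdh5 came after Eng, at 14, 10.4, 10.1 and 8.91 FPKM, and neighbours in that order overlapped. Apart from these, Ehd3, Kdr and Tek then closed the list above Sele, at 5.89, 5.74 and 5.09 FPKM, also overlapping. Flt1 thus stood just above Sele in control and just below Pecam1 with cisplatin. With cisplatin+PCN it also followed Pecam1, at 9.43 FPKM, and it overlapped Cdh5, the gene after it.

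Genes whose profile over the 12 libraries was most like that of a member were found by the mean absolute difference in log2(FPKM + 1) after the control mean of each gene was subtracted. Kdr was nearest to Cd300lg, at 0.0455, and 36 of 11808 genes lay within 0.1 of it. Flt1 was nearest to Nos3, the nitric oxide synthase of endothelium, at 0.053, with 47 genes within 0.1. Eng was nearest to Stab1 at 0.0605. No gene lay within 0.1 of Sele, the nearest being Eaf1 at 0.186. All profiles share the same libraries.

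The vascular ligands, many of them made by podocytes, tubules and mural cells rather than endothelium, fell in 5 and rose in 3 of 9 tested cases (13 listed) after cisplatin, against 31.9% of all tested genes lower and 32% higher, with a median change of -0.77. Vegfa, the main VEGF of the kidney, read 33.4, 31.7 and 31.5 FPKM with cisplatin+PCN, 24.4, 27.3 and 24.6 with cisplatin, 65.3, 60.2 and 61.9 with PCN, and 64.9, 53.5 and 59.5 in control. No library with cisplatin reached the range of those without. Vegfa changed by -1.19 ± 0.08 for cisplatin against control (limma, adjusted p = 4.93e-07). Angpt1, the activating ligand of Tek, read 2.68, 2.48 and 2.49 FPKM with cisplatin+PCN, 1.35, 2.34 and 1.30 with cisplatin, 4.88, 5.50 and 5.21 with PCN, and 4.53, 4.90 and 5.01 in control, so that ligand and receptor were both lowest in the cisplatin libraries. Its cisplatin change was -1.15 ± 0.12 (limma, adjusted p = 1.37e-05). Angpt2, Apln and Vegfb fell too, by 0.77, 1.17 and 0.99 on the log2 scale, while Bmp4, Vegfc and Angptl4, a lipase inhibitor induced by fasting and hypoxia, rose by 0.50, 0.42 and 2.58. Apln encodes apelin, and its receptor Aplnr averaged 0.111 ± 0.029 FPKM with cisplatin and 1.45 ± 0.76 in control (SD, n = 3 each). Both Apln and Aplnr reached the expression minimum only in libraries without cisplatin, so their falls were fixed by it. Apln is among the 5 ligands counted as lower. Between cisplatin+PCN and cisplatin Vegfa, Vegfb and Angpt1 were higher, by 0.33, 0.26 and 0.44, and none of these calls held with only the 6 libraries compared or on omitting cisplatin replicate 1, cisplatin replicate 3, cisplatin+PCN replicate 1 or cisplatin+PCN replicate 3. Angpt1 was kept in only 1 of the 12 omissions, that of cisplatin replicate 2. Gdf2 was listed at 0 in all 12 libraries.

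Among 25 other endothelial receptors and surface genes, all tested, 9 rose and 6 fell after cisplatin, shares close to the 32% and 31.9% of all tested genes, with a median of 0.08. S1pr1, the sphingosine-1-phosphate receptor that tightens endothelial junctions, averaged 12.4 ± 2.17 FPKM with cisplatin and 4.09 ± 0.31 in control (SD, n = 3 each), a rise of 1.39 ± 0.11 (limma, adjusted p = 2.05e-06). Mcam rose by 0.96, while Aplnr and Icam2, an adhesion molecule of resting endothelium, changed by -1.10 and -1.05. The count of genes lower was 3 without control replicate 1 or control replicate 2. Of 14 tested transcription factors (16 listed) 5 rose and 4 fell, also close to those shares. Klf4 and Klf2, which respond to blood flow, rose by 1.90 and 0.62, Sox18 changed by -1.11 (limma, adjusted p = 1.38e-06, 0.000968 and 4.75e-05), and Lyl1 changed by -0.48, a call lost on omitting control replicate 1 or 3 or cisplatin replicate 1 or 3, and under 4 other alternatives. Of the transcription factors, 3 rose on omitting cisplatin replicate 3 or either of control replicates 2 and 3, and 1 fell on omitting cisplatin replicate 1 or control replicate 1. Of 11 tested genes of Notch signalling and arteriovenous identity (14 listed), Notch1 rose by 0.35 and 4 fell, with Dll4, the Notch ligand of tip cells and arteries, at -0.64 (limma, adjusted p = 4.21e-05), Gja4 at -0.35, Gja5 at -0.36 and Nr2f2 at -0.26. These 5 of 11 compare with 63.9% of all tested genes. Limma-voom and rescaling to recovered reads left 2 of these 4, and Gja5 was lost on omitting control replicate 1 or 2 or cisplatin replicate 1 or 3. Of 3 tested lymphatic genes (6 listed) Pdpn rose by 0.68 and Prox1 changed by -0.65, and podocytes also express Pdpn. Of the genes counted as lower here, Aplnr, Sox7, Lyl1, Gja5 and Prox1 reached the expression minimum only in libraries without cisplatin. Their falls were fixed by it and add no support to these counts.

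The list of activation, adhesion and coagulation genes, on which Selp stands, moved in 1 direction. After cisplatin 13 of 14 tested genes (18 listed) rose and none fell, against 32% of all tested genes higher and 31.9% lower. The median was 1.4 against 0.01 for all tested genes, and Cx3cl1 was the gene not called. Of the 14, 3 reached the expression minimum only in libraries with cisplatin, Cxcl1 among them, so their direction was fixed by it. Lrg1, a secreted glycoprotein that alters TGF-beta signalling in vessels, averaged 194 ± 60.1 FPKM with cisplatin and 3.42 ± 0.81 in control (SD, n = 3 each), a rise of 5.43 ± 0.21 (limma, adjusted p = 1.67e-08). Cxcl1, a neutrophil chemokine, rose by 4.11, and Icam1, a leukocyte adhesion molecule, by 2.41. Nos3 averaged 3.11 ± 0.66 FPKM with cisplatin and 1.44 ± 0.08 in control (SD, n = 3 each), a rise of 0.74 ± 0.12. Injured tubules can express several of these genes, so the list is not specific to endothelium in whole kidney. Between cisplatin+PCN and cisplatin 4 of the 14 were lower, as were 7.61% of all tested genes. Among them Plat changed by -0.95 on the log2 scale, Lrg1 by -0.92 and F3 by -0.77. None of these 4 was called with only the 6 libraries compared or without cisplatin replicate 3 or cisplatin+PCN replicate 3, 1 was left on omitting cisplatin replicate 1, and 8 genes were lower without cisplatin+PCN replicate 2.

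**Figure D4:**
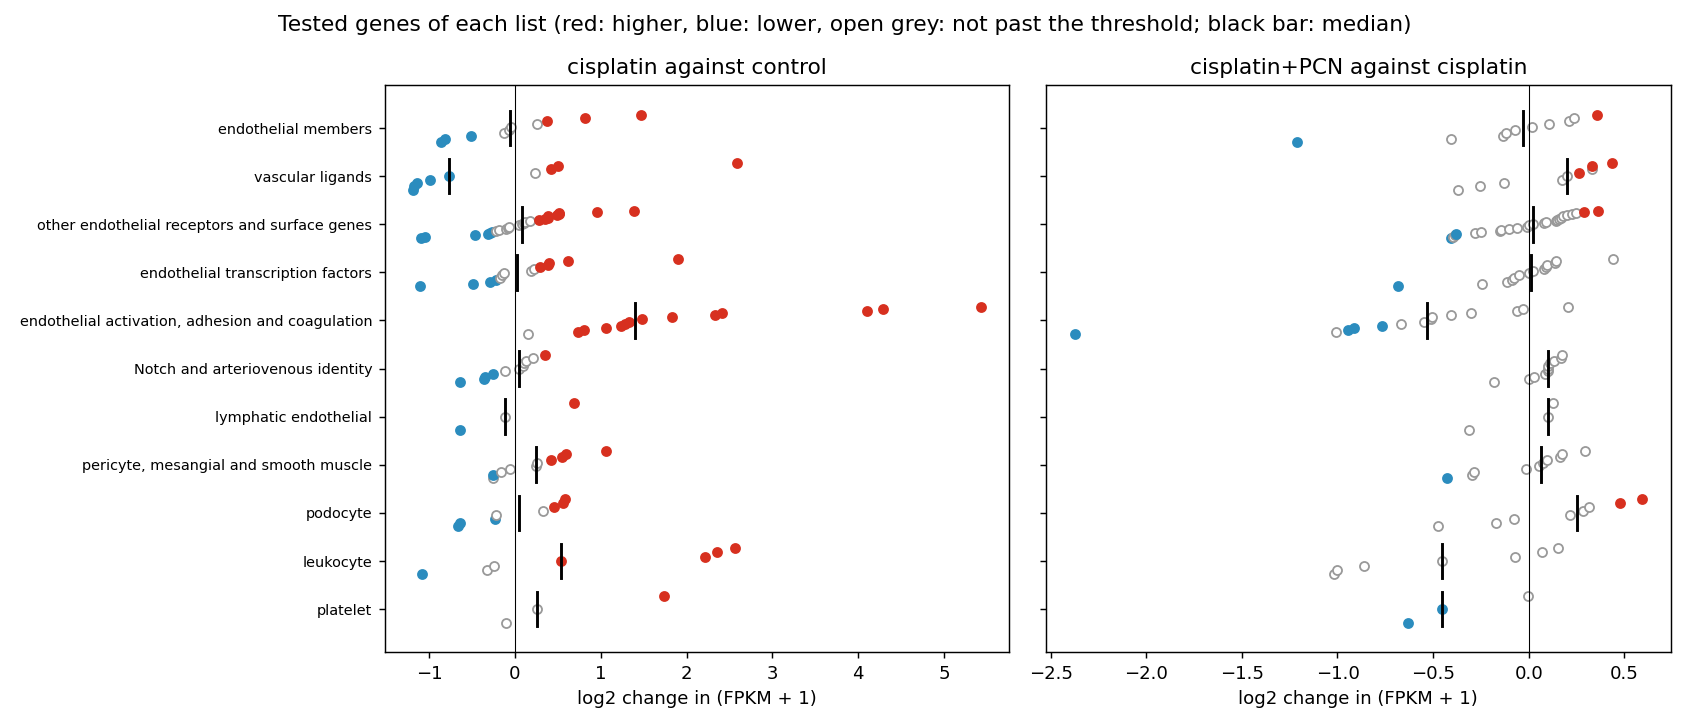
Change in log2(FPKM + 1) of every tested gene of each list (points; red higher, blue lower, open grey not past the threshold) with the list median (black bar), for cisplatin against control (left) and cisplatin+PCN against cisplatin (right). On the left the activation list lies almost wholly to the right of 0, with a median of 1.4, while the endothelial genes lie on both sides with a median of -0.06.

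Markers of the cells that border the endothelium gave both directions. Of 10 tested genes of pericytes, mesangium and smooth muscle (11 listed) 4 rose after cisplatin, Pdgfra, Notch3, Pdgfrb and Cspg4, the call of Pdgfrb being lost on omitting control replicate 3 or cisplatin replicate 1 or 2. Gata3 fell, and its call was lost on omitting control replicate 1, control replicate 2 or cisplatin replicate 1, on recovered reads and with only the groups compared. The sum of this list was 84.9 to 103 FPKM with cisplatin and 62.3 to 97.4 in control. Of 8 podocyte genes, which share the glomerulus with the Ehd3-rich capillaries, 3 rose and 3 fell. Beside the counts of both lists stand the 32% of all tested genes that rose and the 31.9% that fell. The podocyte sum was 77.4 to 83.5 FPKM with cisplatin and 68.5 to 88.3 in control. Apln, Aplnr, Sox7, Lyl1, Gja5, Prox1 and the erythroid genes Hbb-bt, Hba-a2 and Alas2 reached the expression minimum only in libraries without cisplatin, and Procr, Cxcl1 and the injury genes Havcr1 and Krt20 only in those with it, so their directions were fixed by that minimum and support nothing. Genes named beyond the 4 with the largest change in a list were picked after their values were seen.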

How the data were processed

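Kidney RNA was sequenced in 12 libraries of 4 groups. The authors deposited FPKM per gene, with coordinates and gene lengths. HISAT2 2.0.5, featureCounts 1.5.0-p3, DESeq2 1.16.1 and edgeR 3.18.1 are named, without roles, in the submitters' processing notes, as is build mm8, but the deposited member coordinates are those of GRCm38. Whether counting used strand was not stated, so reads of a gene and of an overlapping antisense partner may be mixed. FPKM times gene length gave whole reads in 100% of nonzero values within 0.001 reads, and an FPKM of 1 equals 18.7 to 27.25 reads per kilobase. The library totals implied by FPKM differed from the recovered reads by factors of 0.952 to 1.11. The factor was 0.964 to 0.981 in the libraries without cisplatin and 1.018 to 1.083 with cisplatin. With cisplatin+PCN it was 0.952, 1.108 and 1.067, so it went with treatment in all but cisplatin+PCN replicate 1. Rescaling to recovered-read totals raised the median change of all genes by 0.0733 on the log2 scale for cisplatin against control.

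The test was limma 3.58.1 (R 4.3.3) on log2(FPKM + 1), two-sided, with an intensity trend, in 1 fit of 4 group means without covariates, for 6 comparisons including the interaction. Exact permutation of 3 against 3 libraries cannot go below p = 0.1 and was not used. Replicates differed by more than sampling noise in all 12 pairs (chi-square per gene 4.97 to 78.7). Alternatives were pseudocounts of 0.1 and 0.5, no expression minimum, a mean FPKM of at least 5, median-of-ratios and quantile scaling, only the groups compared, omission of each library in turn, limma-voom run with recovered reads, and a block for replicate number. Rescaling to recovered-read totals was added after the data were seen.

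The members and lists were chosen with earlier results of these data known. All 10 members are named, and from each other list the up to 4 genes with the largest change per comparison. The procedure was tested on simulated data. Promoters were matched by symbol for 7 of 10 members in RefSeq (GRCm38.p6). Some genes that this rule would name are not reported here.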

Additional observations from a re-analysis of the deposited data

Results flagged for a closer look

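Slc4a1, an anion exchanger of red cells and of acid-secreting collecting duct cells, read 2.67, 3.26 and 3.92 FPKM with cisplatin+PCN, 1.01, 1.43 and 1.04 with cisplatin, 9, 10.4 and 10.3 with PCN, and 10.6, 12 and 10.6 in control. It was low in all libraries with cisplatin, less so where PCN was given, and its interaction was 1.13 on the log2 scale (limma, adjusted p = 0.0266), the only one among the genes of the lists to pass. That call was lost without the expression minimum and on omitting any control or PCN library, cisplatin replicate 1, cisplatin replicate 3 or cisplatin+PCN replicate 3, with adjusted p up to 0.0909.

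Calcrl, the receptor of adrenomedullin in endothelium, stood out because every cisplatin library was above every control library while every cisplatin+PCN library was below every PCN library. Its cisplatin change was -0.375 with PCN and 0.18 without, and the interaction of -0.55 did not pass (limma, adjusted p = 0.102). That interaction passed on omitting cisplatin replicate 2 or cisplatin+PCN replicate 2 (limma, adjusted p = 0.0133 and 0.0285). Gata3, a factor of mesangial and collecting duct cells, showed the opposite arrangement, with a change of 0.258 with PCN and -0.25 without it, and an interaction of 0.51 that did not pass (limma, adjusted p = 0.117). The Gata3 interaction passed on omitting cisplatin replicate 2 (limma, adjusted p = 0.0259). Over all tested genes, 1066 interactions were called without cisplatin replicate 2 and 493 without cisplatin+PCN replicate 2.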

How the results depend on the processing

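No called change of an endothelial gene turned direction under any of the alternatives tried, while 14 uncalled ones, none above 0.128 in size on the log2 scale, changed sign under at least 1. Of 1304 values, 1262 kept their side of the threshold and size, 20 lost a call, 14 gained one and 8, all of Sele, moved beyond their spread. The count of members called between cisplatin+PCN and cisplatin was 2, but 1 with a mean FPKM of at least 5 (Sele could not be tested), 0 with only the groups compared, and between 1 and 4 with a library left out (1 without cisplatin replicate 1 or 3, 4 without cisplatin replicate 2). The interaction called 0 members, and between 0 and 2 with a library left out (2 without cisplatin replicate 2). For all tested genes past the threshold, cisplatin against control called 8649 and 5197 with a mean FPKM of at least 5, cisplatin+PCN against PCN 6352 and 4031, and cisplatin+PCN against control 6308 and 4000, since fewer genes are tested there. PCN against control called 0, and 2 without the expression minimum. Between cisplatin+PCN and cisplatin 2110 genes were called, against 1008 without the expression minimum, 1 with only the groups compared, and from 580 to 3390 with a library left out: 3390 without cisplatin replicate 2, 805 without cisplatin replicate 1, 580 without cisplatin replicate 3, 1175 without cisplatin+PCN replicate 1 and 596 without cisplatin+PCN replicate 3. The interaction called 15, against 30 with a mean FPKM of at least 5, 68 with limma-voom, 29 with recovered-read totals, and from 9 to 1066 with a library left out: 1066 without cisplatin replicate 2, 493 without cisplatin+PCN replicate 2 and 9 without cisplatin+PCN replicate 3. Except for fewer genes or libraries, the cause was not tested.

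Replicate numbers gave no clear answer on pairing. Deviations of same-numbered libraries correlated from -0.281 to 0.366, with a median of -0.0302 against 0.0272 for other pairs. Yet 8 of 12 libraries correlated best with a library of their own number. With a replicate block the members called were 6, 0, 2, 5, 5 and 0 in the order of cisplatin against control, PCN against control, cisplatin+PCN against cisplatin, against PCN and against control, and the interaction, and of the members' calls only that of Pecam1 against PCN was lost (limma, adjusted p = 0.0571). Limma-voom and recovered-read totals moved the median of all genes by at most 0.096 on the log2 scale. Sele rests on 2 to 31 reads in the 9 libraries outside the cisplatin group, so its fold is imprecise.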
